A study of Homo sapiens with 8 samples.

Results

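ATF4 and 9 genes that it is known to switch on under amino acid stress were followed in multiple myeloma cells given the CDK7 inhibitor THZ1. The 10 genes were fixed as a list of symbols (ATF4, DDIT3, TRIB3, CHAC1, ASNS, PSAT1, PHGDH, PSPH, SHMT2 and SLC7A11), and each symbol matched 1 Ensembl identifier among the 63677 genes of the deposited count tables. All 10 passed the filter on low counts in each comparison. The study sequenced total RNA from the human multiple myeloma lines JJN3 and H929, each cultured for 24 h with THZ1 at 50 nM or with its vehicle DMSO, to learn which transcripts depend on CDK7, a kinase that phosphorylates RNA polymerase II. Each of the 4 groups held 2 libraries, the design set THZ1 against DMSO within a line, and the labels name no deleted or added gene in any group. The sources do not say whether the 2 libraries of a group came from separate cultures, and p-values then measure the spread between these libraries, which may be technical. Each line is a single culture model derived from a tumor, and each comparison concerns that line.

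ATF4 is a transcription factor of the integrated stress response. Kinases that sense amino acid shortage, unfolded protein, viral RNA or lack of heme phosphorylate the translation factor eIF2alpha, general translation slows, and ATF4 mRNA is then translated more because of the short reading frames ahead of its coding sequence. ATF4 protein joins a C/EBP or related partner on composite DNA sites called C/EBP-ATF response elements (CARE) and raises genes for amino acid synthesis, uptake and tRNA charging, and, when stress lasts, genes for cell death. Plasma cells and myeloma cells secrete large amounts of immunoglobulin and are known for a high demand on protein folding and amino acid supply. The measurements here are of mRNA, and ATF4 protein and eIF2alpha phosphorylation were not measured in these libraries.

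The sequences below show where the best-known ATF4 recognition sequence lies in these genes. The core TGATGNAA (N is any base) was searched on both strands within 500 bases on either side of the transcription start site of each gene's canonical transcript, in the hg19/GRCh37 genome with GENCODE v44lift37 gene models. At least 1 match was found in 7 of the 10 genes, with 11 matches in all, and in 1488 of 19881 protein-coding genes, or 7.48%. The windows of ATF4, PHGDH and PSPH held no match. In the shorter promoter windows of RefSeq (GRCh38), 7 of the 10 genes had an entry and 2 of them, ASNS and CHAC1, held the core, as did 3.62% of 35116 promoters. Each line gives 30 bases read 5′ to 3′ on the strand that carries the motif, with the motif in capitals.
DDIT3 (upstream, chr12:57914585-57914614, plus strand): gggggcggggaTGATGCAAtgtttggcaac
TRIB3 (exon, first of 3 identical copies, chr20:361525-361554, minus strand): cccggtccgggTGATGCAAaccggagctaa
CHAC1 (upstream, chr15:41245449-41245478, minus strand): cctggcaggagTGATGCAAcggcaggggag
ASNS (upstream, chr7:97501770-97501799, minus strand): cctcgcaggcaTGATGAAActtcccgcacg
PSAT1 (intron, chr9:80912297-80912326, minus strand): gctgtgcacgcTGATGCAAagcgcctaggg
SHMT2 (intron, chr12:57623942-57623971, plus strand): agccctgcagaTGATGCAAccgagcttcac
SHMT2 (intron, chr12:57623964-57623993, minus strand): ggacccctgccTGATGCAAgcagtgaagct
SLC7A11 (upstream, chr4:139163580-139163609, minus strand): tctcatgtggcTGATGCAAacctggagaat
SLC7A11 (upstream, chr4:139163561-139163590, plus strand): cagctaaatgaTGATGCAAattctccaggt

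The 3 TRIB3 copies followed each other at a spacing of 33 bases inside the transcribed region, starting 132, 165 and 198 bases after the start site. The other genes carried 1 match, or a pair on opposite strands in SHMT2 and SLC7A11, where the paired matches of SLC7A11 stood 19 bases apart. A match is a description of the letters in the window and not a bound site, and no binding was measured here.

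**Figure D1:**
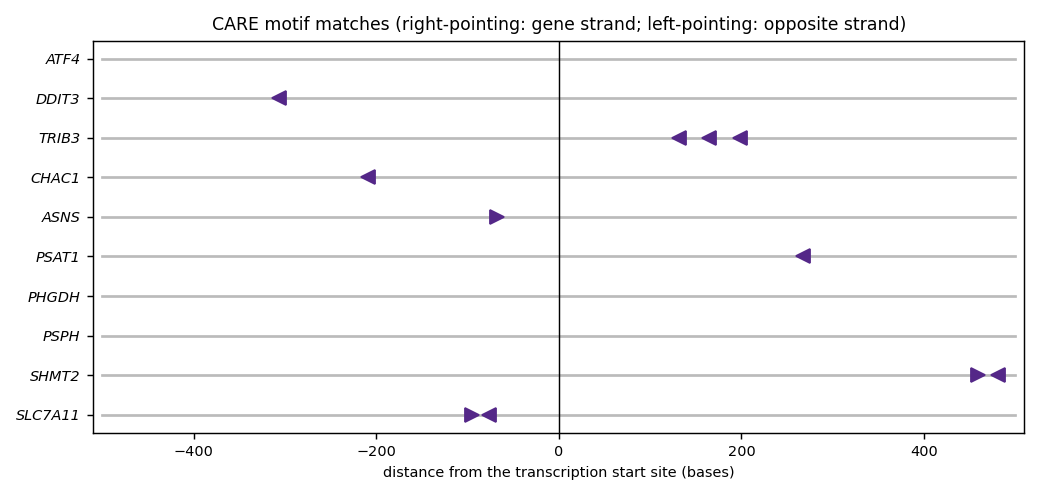
Positions of CARE core matches within 500 bases of the transcription start site of each gene, on an axis in bases with 0 at the start site. Triangles are matches, right-pointing on the gene's strand and left-pointing on the opposite strand; DDIT3, CHAC1, ASNS and SLC7A11 have theirs upstream, TRIB3, PSAT1 and SHMT2 downstream, and ATF4, PHGDH and PSPH have none.

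The libraries held between 17476443 and 19194371 counts each, and log2 CPM (CPM is a count scaled to a fixed library total) correlated between replicates across 14530 genes at r of 0.995 to 0.998. Plasma cell markers were present in all 4 groups, with 7 or 8 of the 8 markers detected at 1 CPM or more in both libraries. The libraries labelled H929 stood apart by label in more than treatment. Of light chain V gene counts, lambda chains made up 98.0% and 100% under the H929 DMSO label and 0.203% and 0.194% under the H929 THZ1 label. FGFR3, which H929 is known to express through a translocation, was at 2.4 and 15.8 CPM under the DMSO label and at 766 and 733 CPM under the THZ1 label. MAF was at 960 and 904 CPM against 148 and 161 CPM. Library profiles under the H929 DMSO and H929 THZ1 labels correlated at r of 0.802 to 0.824, and the JJN3 groups at 0.966 to 0.974. Summed plasma cell markers were at 1760 and 1920 CPM under the H929 DMSO label against 7160 and 7070 CPM under the THZ1 label, T and NK cell markers at 1.49 and 2.16 against 35.8 and 36.3 CPM, and stromal and epithelial markers at 223 and 218 against 1.79 and 1.48 CPM. Of the 8 plasma cell markers 6 were higher under the THZ1 label, and CD38 (96.5 and 91.7 against 65.9 and 64.0 CPM) and MZB1 (350.0 and 382 against 186 and 176 CPM) were lower. CD3E, at 34.7 and 35.5 CPM, made up nearly all of the T and NK cell sum under the THZ1 label, where CD3D was at 0, and EPCAM and KRT18 made up most of the stromal and epithelial sum under the DMSO label. Replicate 2 of the H929 DMSO label held 597 kappa V gene counts and replicate 1 held 3. Treatment and the source of the cells therefore cannot be told apart between the libraries labelled H929, and each value from them is given by label.

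In JJN3, THZ1-treated cells had less mRNA of ATF4 and of 6 of its 9 listed targets, more of SLC7A11, and no called change in PHGDH or SHMT2. The limits of the study were kept, so a gene was called where its log2 fold change exceeded 0.5 either way and its adjusted p was below 0.05, with edgeR's quasi-likelihood test and Benjamini-Hochberg adjustment over 13984 genes. By this rule 7 of the 10 genes were lower and 1 was higher, while among all genes tested 21.3% were lower and 20.6% higher. The median log2 fold change of the 10 genes was -0.85, and that of all genes tested was 0. TMM scaling takes most genes as unchanged and so tends to place the median of all genes near 0. With total counts in place of TMM that median was -0.103. Each count is a share of its library, and in bulk samples fewer cells of a type and less RNA per cell cannot be told apart.

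**Figure D2:**
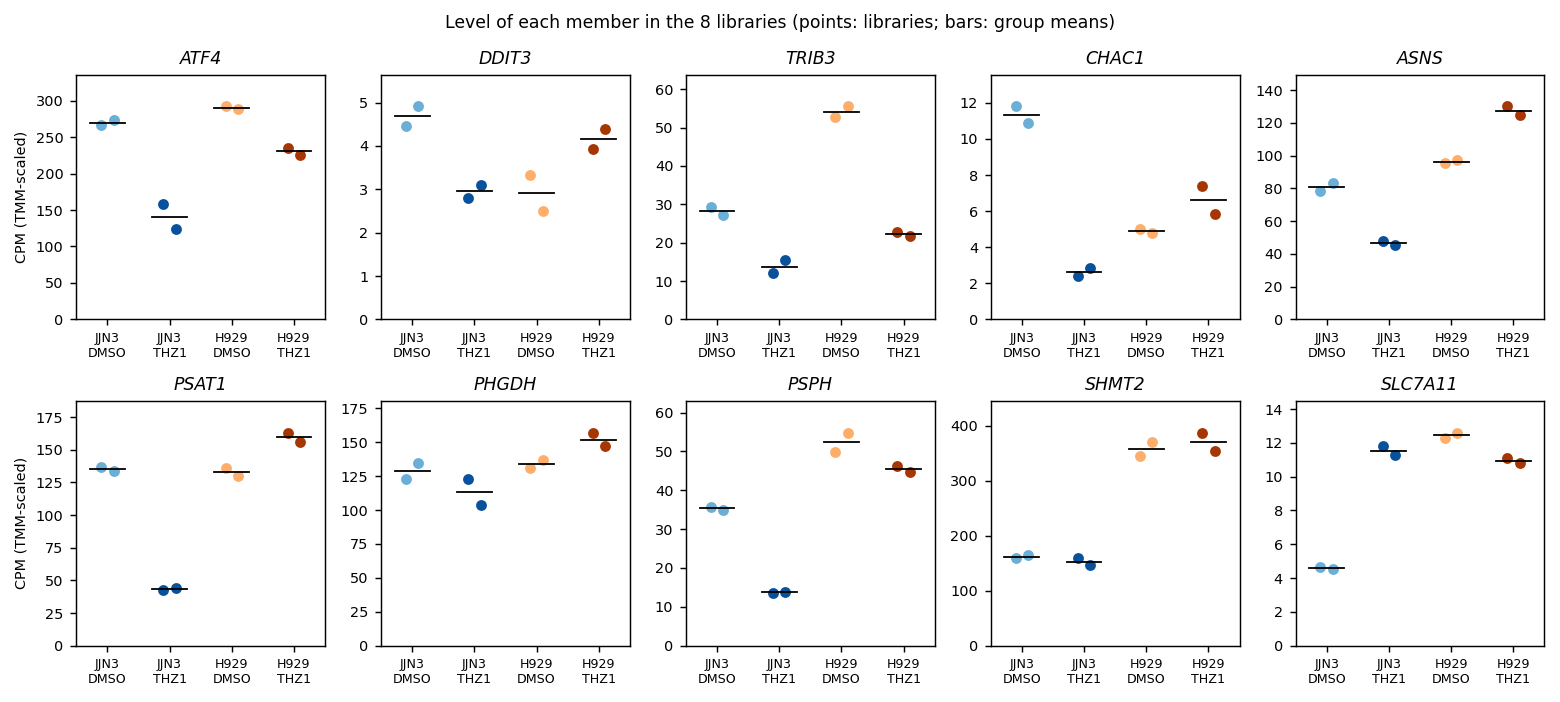
Level of each of the 10 genes in the 8 libraries, in TMM-scaled CPM on axes that start at 0. Points are single libraries and bars are means of 2 libraries; in JJN3, CHAC1 went from a mean of 11.3 to 2.61 CPM and SLC7A11 from 4.61 to 11.5 CPM, with no overlap between the groups.

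ATF4 itself, on chromosome 22, was at 266 and 273 TMM-scaled CPM in the JJN3 DMSO libraries and at 158 and 124 CPM in the THZ1 libraries. The groups did not overlap, and the THZ1 libraries differed from each other by more than the DMSO libraries did. ATF4 fell by 0.92 on the log2 scale (SE 0.107, 1.89-fold, adjusted p = 3.09e-05 by edgeR's quasi-likelihood test). Leaving out 1 library in turn gave log2 fold changes between -1.1 and -0.76.

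Among the effectors of the stress response, CHAC1, a gamma-glutamylcyclotransferase that degrades glutathione, had the largest fall of the 10 genes. It was at 11.8 and 10.9 CPM in DMSO and at 2.38 and 2.83 CPM in THZ1 (228, 213, 39 and 51 counts). That is a 4.28-fold lower level (log2 fold change -2.10, SE 0.188, adjusted p = 5.64e-06 by edgeR). TRIB3, a pseudokinase that restrains ATF4 and AKT, was at 29.3 and 27.3 CPM in DMSO and at 12.1 and 15.4 CPM in THZ1. It fell by 1.02 on the log2 scale (SE 0.131, adjusted p = 6.25e-05 by edgeR), with no overlap between the groups.

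DDIT3 encodes CHOP, the transcription factor linked to death of cells under lasting stress. It had 86 and 96 counts in DMSO and 46 and 56 in THZ1, the lowest counts of the 10 genes in JJN3 DMSO beside SLC7A11. The log2 fold change was -0.64 (SE 0.22, adjusted p = 0.026 by edgeR). The call rested on the settings and on single libraries, since the adjusted p was 0.12 with DESeq2, 0.0625 without DMSO replicate 1, 0.151 without DMSO replicate 2 and 0.0646 without THZ1 replicate 1, within a range of 0.0135 to 0.151 over 11 alternatives. Of the exon bases of DDIT3, 31.6% are also exon bases of genes on the other strand, MARS and MBD6, and no source used here says whether the counting used strand. On the same strand 8.03% are shared with an annotated gene that is not among the genes counted. MARS, the methionyl-tRNA synthetase gene, had 3361 and 3795 counts in DMSO and 898 and 1009 in THZ1 and fell by 1.72 on the log2 scale. Reads of DDIT3 and MARS in the shared bases cannot be told apart without strand.

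ASNS, which makes asparagine from aspartate and glutamine, was at 78.3 and 83.2 CPM in DMSO and at 47.9 and 45.4 CPM in THZ1. The fall was 0.78 on the log2 scale (SE 0.0841, 1.71-fold, adjusted p = 1.9e-05 by edgeR), and the groups did not overlap. An annotated gene that shares 49.33% of the ASNS exon bases on the same strand is not among the genes counted.

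The serine synthesis pathway was not lowered evenly. PHGDH, its first enzyme, was at 123 and 135 CPM in DMSO and at 123 and 104 CPM in THZ1. These ranges met, and the log2 fold change of -0.17 (SE 0.0952, adjusted p = 0.155 by edgeR) was not called. PSAT1, the aminotransferase of the next step, was at 137 and 134 CPM in DMSO and at 42.9 and 44.2 CPM in THZ1. The JJN3 THZ1 libraries had the lowest PSAT1 levels of all 8 libraries. PSAT1 was 3.08-fold lower (log2 fold change -1.62, SE 0.08, adjusted p = 4.81e-07 by edgeR), with -1.72 to -1.6 over the alternative settings. PSPH, the phosphatase of the last step, was at 35.8 and 34.9 CPM against 13.6 and 13.8 CPM. It was 2.55-fold lower (log2 fold change -1.35, SE 0.106, adjusted p = 2.6e-06 by edgeR). The difference between the responses of PHGDH and its neighbours in the pathway was not itself tested.

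SHMT2, the mitochondrial enzyme that splits serine into glycine and a folate-bound carbon unit, was at 160 and 164 CPM in DMSO and at 159 and 146 CPM in THZ1. The log2 fold change of -0.07 (SE 0.0806) did not pass, with an adjusted p of 0.452 by edgeR. Genes on the other strand share 8.38% of the SHMT2 exon bases, and NDUFA4L2, the 1 of them that was counted, had 42 to 65 counts in JJN3.

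SLC7A11, the cystine and glutamate exchanger that feeds glutathione synthesis, moved the other way. It had 90 and 89 counts in DMSO and 193 and 203 in THZ1, or 4.65 and 4.56 CPM against 11.8 and 11.3 CPM. The THZ1 libraries were far above the DMSO libraries, at 2.53-fold (log2 fold change 1.34, SE 0.161, adjusted p = 3.87e-05 by edgeR), and leaving out 1 library in turn gave 1.31 to 1.37. Its antisense neighbour SLC7A11-AS1 shares 8.97% of the exon bases and had at most 7 counts in any library. The genes that carry the CARE core near their start site thus included 5 of the 7 that were lower, 1 of the 2 not called and the 1 that was higher.

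Per kilobase of canonical transcript, the 10 genes spanned a wide range in JJN3 DMSO, from 0.478 CPM per kb for SLC7A11 to 190 CPM per kb for ATF4. SHMT2 (75.1 CPM per kb), PHGDH (69.2) and PSAT1 (61.4) followed ATF4, and DDIT3 (5.18) and CHAC1 (7.47) were at the low end with SLC7A11. In JJN3 THZ1 the mean levels per kb were 99.4 for ATF4, 70.6 for SHMT2, 61.0 for PHGDH and 19.7 for PSAT1, so PSAT1 no longer lay near PHGDH. CHAC1 at 1.72 CPM per kb and SLC7A11 at 1.20 CPM per kb then had the lowest levels.

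Mitochondrial transcripts took 3.36% and 1.65% of counts in the JJN3 DMSO libraries and 5.34% and 6.63% in the THZ1 libraries, and their part in the results was not tested. Total counts in place of TMM moved the median of all genes in this comparison to -0.103 and changed no call among the 10 genes. Summed plasma cell markers were at 2090 and 2120 CPM in JJN3 DMSO and at 1390 and 1410 CPM in JJN3 THZ1, with 6 of the 8 markers lower in both THZ1 libraries (MZB1 at 153 and 179 against 76.0 and 73.5 CPM), PRDM1 higher at 176 and 160.0 against 230.0 and 210.0 CPM, and CD38 overlapping between the groups. The part of this marker shift in the results was not tested. Summed B cell markers were at 13.4 and 14.1 CPM in DMSO and 21.9 and 18.2 CPM in THZ1, T and NK cell and myeloid markers at no more than 4.58 CPM, and stromal and epithelial markers at 69.9 to 82.6 CPM. BCL6 made up most of the B cell sum (10.5 and 10.1 CPM in DMSO, 19.8 and 17.3 CPM in THZ1), CD22 was at 0 in all 4 JJN3 libraries, CD3D was at no more than 0.114 CPM, and EPCAM, at 64.7 to 78.6 CPM, made up most of the stromal and epithelial sum.

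**Figure D3:**
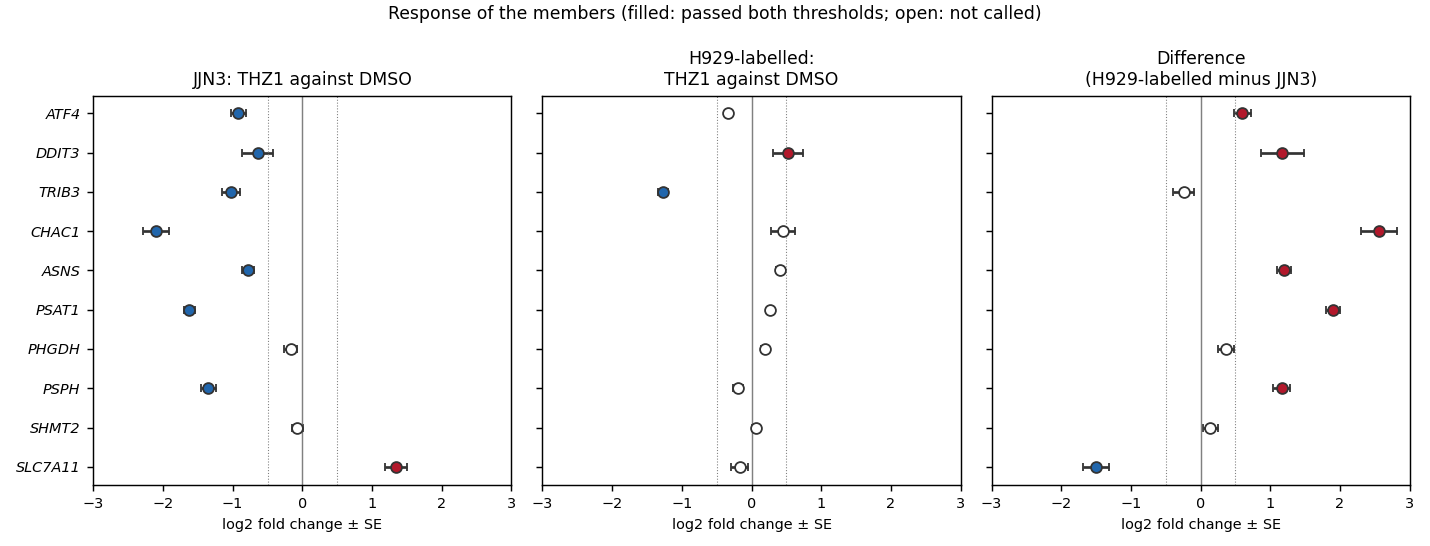
Log2 fold change with its standard error for each of the 10 genes, for THZ1 against DMSO in JJN3, for THZ1 against DMSO among the libraries labelled H929, and for the difference of these responses. Filled points passed both thresholds (dotted lines mark a log2 fold change of 0.5 either way); in JJN3 7 genes lie to the left and SLC7A11 to the right, and under the H929 label TRIB3 and DDIT3 are the filled points.

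The wider network around ATF4 was followed with 8 lists of 91 further genes, of which 86 were tested in JJN3. Of these, 40 were lower, 6 were higher and 40 were not called, and their median log2 fold change was -0.48. Beside the background of 21.3% lower and 20.6% higher, the lower share was largest among the aminoacyl-tRNA synthetases, which charge tRNAs with amino acids. There 13 of 20 were lower and the other 7 were not called, with a median of -0.59. MARS had the largest fall, and FARSA (-1.11), AARS (-0.95), YARS (-0.92) and WARS (-0.84) came next on the log2 scale. These 4, like the further genes of the transporter, synthesis, stress effector and eIF2alpha lists below, were chosen after their values were seen.

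Amino acid transporters, 10 of 11 tested, had 6 lower and 4 not called, beside 21.3% lower and 20.6% higher over all genes. SLC6A9, a glycine transporter, had 382 and 333 counts in DMSO and 45 and 75 in THZ1, and fell by 2.38 on the log2 scale (SE 0.191, adjusted p = 2.91e-06 by edgeR). The other 5 were the glutamine transporter SLC1A5 (-1.29), the large neutral amino acid transporter SLC7A5 (-0.97), SLC1A4 (-0.77), the cationic amino acid transporter SLC7A1 (-0.54) and SLC43A1 (-0.54). SLC7A11 was thus higher in a class of genes whose called members on this list were lower.

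Of 14 other enzymes of amino acid synthesis, 7 were lower and 2 higher, beside 21.3% lower and 20.6% higher over all genes. PYCRL, an enzyme of proline synthesis, had 1124 and 1097 counts in DMSO and 247 and 293 in THZ1 (log2 fold change -1.85, SE 0.0981, adjusted p = 6.46e-07 by edgeR). PYCR1 (-1.65), of the same step, was lower too, as were the cystathionine synthase CBS (-1.6), ASS1 (-1.29), BCAT2 (-0.84) and GPT2 (-0.69). GOT1, the cytosolic aspartate aminotransferase, was 1.68-fold higher with 920 and 934 counts in DMSO against 1375 and 1336 in THZ1 (adjusted p = 3.61e-05 by edgeR), and GLUD1 was the other gene called higher (0.58). With total counts in place of TMM 1 of these 2 was called, GOT1 at 0.64. Among 11 enzymes of serine, glycine and folate metabolism outside the 10 genes, 5 were lower, beside 21.3% over all genes. ALDH1L2, a mitochondrial folate dehydrogenase, had the largest fall, with 2248 and 2087 counts in DMSO against 1086 and 916 in THZ1 (log2 fold change -0.91, SE 0.113).

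The stress effectors and brakes of the growth kinase mTORC1 had 4 lower and 1 higher of 9 tested, beside 21.3% lower and 20.6% higher over all genes. Of the 4 lower genes, VLDLR had a low level, with an average log2 CPM of 0.424 (adjusted p = 0.0317 by edgeR). STC2, a secreted glycoprotein raised by ATF4, had 1250 and 1315 counts in DMSO against 371 and 381 in THZ1 (log2 fold change -1.58, SE 0.0917, adjusted p = 8.42e-07 by edgeR). KLHL24 rose by 1.06 on the log2 scale, with 485 and 481 counts in DMSO against 731 and 1038 in THZ1. Of 6 glutathione genes 1 was lower and the other 5 were not called, beside 21.3% lower over all genes. The lower gene was CHAC2, the constitutive relative of CHAC1 (885 and 909 counts against 302 and 275, log2 fold change -1.44).

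Upstream of ATF4, a list of 9 genes held eIF2alpha kinases and phosphatase subunits, eIF2alpha itself (EIF2S1), and GCN1L1 and IMPACT. Of these 9, 2 were higher and 2 lower, shares near those over all genes. With total counts in place of TMM 1 was higher, EIF2AK3. EIF2AK3, which encodes the endoplasmic reticulum kinase PERK, had 357 and 299 counts in DMSO and 476 and 555 in THZ1 (log2 fold change 0.84, SE 0.119, adjusted p = 0.000125 by edgeR). PPP1R15A, a subunit of the eIF2alpha phosphatase, was the other gene called higher (0.57, SE 0.0824). PPP1R15B, another subunit of that phosphatase, fell by 0.62 (SE 0.0763), and EIF2S1 was the other gene called lower (-0.56). Of 7 partner and related transcription factors tested, 1 was higher and 2 were lower, beside 20.6% higher and 21.3% lower over all genes. JDP2, a repressor of the AP-1 family, had 58 and 64 counts in DMSO and 10 and 10 in THZ1 (log2 fold change -2.40, SE 0.327). ATF3 was called higher at 0.66 (adjusted p = 0.0324 by edgeR), with 74 and 68 counts against 75 and 122. Replicate 1 of THZ1 was close to the DMSO libraries, and the adjusted p was 0.242 without THZ1 replicate 2 (log2 fold change 0.34), 0.0724 without DMSO replicate 1, 0.138 without DMSO replicate 2 and 0.0773 with DESeq2, within a range of 0.00221 to 0.242.

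**Figure D4:**
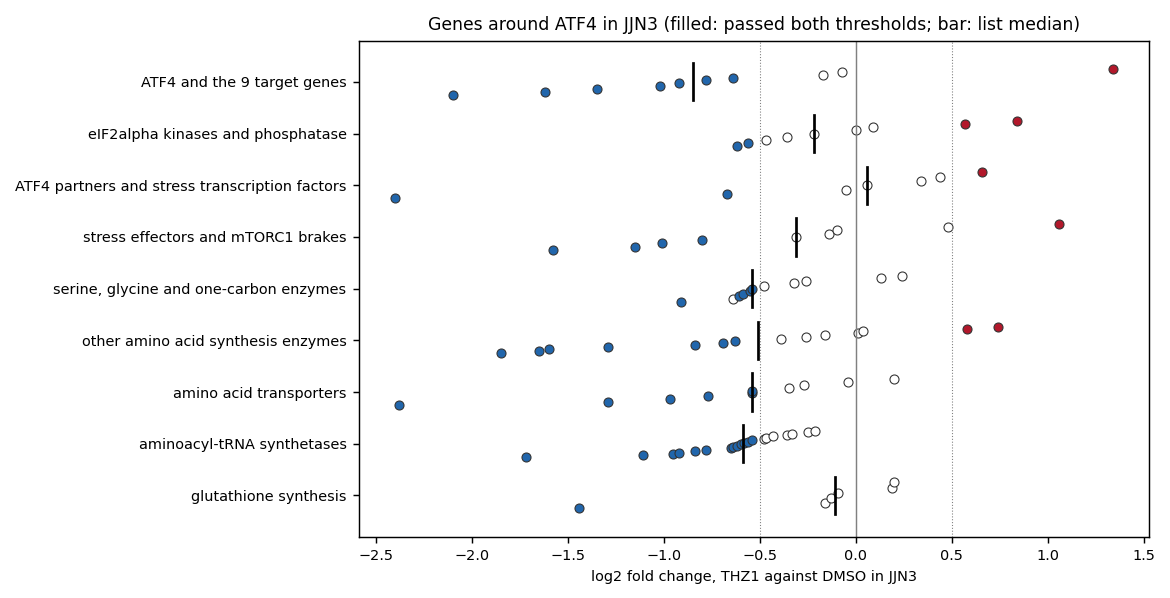
Log2 fold change of THZ1 against DMSO in JJN3 for the 10 genes and for the tested genes of 8 lists, with 1 point per gene; bars are list medians, filled points passed both thresholds and dotted lines mark 0.5 either way. The 20 aminoacyl-tRNA synthetases lie left of 0 with a median of -0.59, and the partner transcription factors are centred near 0 with a median of 0.06.

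Among the libraries labelled H929 the same contrast looked different. With 14863 genes tested, 33.1% were higher and 32.6% lower under the THZ1 label than under the DMSO label. Of the 10 genes 1 was higher, 1 was lower and 8 were not called, with a median log2 fold change of 0.12 (0.01 over all genes tested). These shares of called genes among all genes were larger than in JJN3, and the difference between the labels in light chains and FGFR3 stands beside each value that follows.

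TRIB3 was the gene called lower, as in JJN3. Its counts were 980 and 1003 with the DMSO label against 437 and 412 with the THZ1 label, or 52.7 and 55.5 CPM against 22.9 and 21.7 CPM. The log2 fold change was -1.27 (SE 0.0783, 2.41-fold, adjusted p = 3.47e-10 by edgeR's quasi-likelihood test), and it lay between -1.32 and -1.22 when 1 library in turn was left out.

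DDIT3 was the gene called higher, with 62 and 45 counts in DMSO-labelled and 75 and 83 in THZ1-labelled libraries (log2 fold change 0.52, SE 0.214, adjusted p = 0.0359 by edgeR). It lay just beyond the fold limit. The adjusted p was 0.129 with DESeq2, 0.108 with no filter on low counts, 0.183 without DMSO replicate 2 (log2 fold change 0.34), 0.0505 without THZ1 replicate 1 (0.60) and 0.15 without THZ1 replicate 2 (0.45), within a range of 0.0236 to 0.183. MBD6, which overlaps DDIT3 on the other strand, went from 544 and 508 to 1375 and 1377 counts (log2 fold change 1.34, adjusted p = 4.38e-11 by edgeR), and reads in shared bases cannot be told apart without strand.

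ATF4 was at 292 and 289 CPM under the DMSO label and at 235 and 226 CPM under the THZ1 label. The groups did not overlap and the adjusted p was 1.85e-05 by edgeR, but the log2 fold change of -0.33 (SE 0.0505) was within the limit of 0.5. ASNS was higher under the THZ1 label in both libraries (95.2 and 97.2 against 130 and 125 CPM), also within the limit at 0.41 (SE 0.055, adjusted p = 4e-06 by edgeR). CHAC1 had 93 and 86 counts against 141 and 111 (log2 fold change 0.45, SE 0.174), and its log2 fold change was 0.28 (adjusted p = 0.245 by edgeR) without THZ1 replicate 1 and 0.61 (adjusted p = 0.0116, past the limit) without THZ1 replicate 2. PSAT1 (0.27), PHGDH (0.19), SHMT2 (0.06), SLC7A11 (-0.17) and PSPH (-0.19) lay nearer to 0, and the SLC7A11 libraries held between 205 and 228 counts. The adjusted p by edgeR was below 0.05 for 8 of the 10 genes, all but SHMT2 (0.391) and SLC7A11 (0.19). For the other genes not called, the fold limit alone set the call.

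Of 84 genes tested from the 8 lists, 23 were higher and 31 lower under the THZ1 label, with 30 not called and a median of -0.23. Over all genes tested 33.1% were higher and 32.6% lower, so the list counts lay near these shares. EIF2AK3 counts were 459 and 648 with the DMSO label but 10932 and 10861 with the THZ1 label (log2 fold change 4.25, SE 0.105, adjusted p = 6.75e-15 by edgeR). EIF2AK1, the heme-sensing kinase, fell by 1.68. ATF5, a relative of ATF4 that is translated in the same way, rose by 1.94, and JDP2 fell by 4.15. Of the effectors, the stress sensor SESN2 rose by 1.71 and DDIT4, an inhibitor of mTORC1, fell by 0.75. ASS1, which makes argininosuccinate, had 4376 and 4186 counts against 73 and 67 (log2 fold change -5.98), and CTH, the last enzyme of cysteine synthesis, rose by 1.03. The glutamine transporter SLC38A2 fell by 1.70, KARS by 1.6 and GGT1 by 2.72, while CARS rose by 1.22 and GSS by 0.94 on the log2 scale. GLDC, of the glycine cleavage system, and the transporter SLC36A4 were at 0 counts in DMSO replicate 1, at 68 and 12 counts in replicate 2, and at 3332 to 3456 and 418 to 463 counts under the THZ1 label. Replicate 2 of the DMSO label therefore set their fitted values, and no fold is given for them.

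The difference of the responses was tested with an interaction term in a fit of 16122 genes to the 8 libraries together. Under the H929 label the response stands for THZ1-labelled against DMSO-labelled libraries, where treatment and the source of the cells cannot be told apart. Of the 10 genes 6 had a response that was higher under the H929 label than in JJN3 and 1 a lower one, while 28.1% of all genes were called higher and 25.5% lower. CHAC1 differed most, by 2.56 on the log2 scale (SE 0.261, adjusted p = 3.43e-07 by edgeR), followed by PSAT1 at 1.90 (SE 0.0973). ASNS differed by 1.20, DDIT3 by 1.17, PSPH by 1.16 and ATF4 by 0.60. Of the genes that share exon bases with DDIT3 on the other strand, MARS changed by -1.72 in JJN3 and 0.15 under the H929 label. MBD6 changed by 0.1 and 1.34, and the part of both in the DDIT3 difference was not tested. The ATF4 difference was 0.45 without JJN3 THZ1 replicate 2, within the limit. SLC7A11 differed by -1.50 (SE 0.188, adjusted p = 3.44e-06 by edgeR). It rose in JJN3 and was not called under the H929 label. TRIB3, lower in both, gave a difference of -0.24 with a standard error of 0.151 and an adjusted p of 0.183 by edgeR, which was not called. The differences for PHGDH (0.36) and SHMT2 (0.14) were not called either, and that for PHGDH was past the limit with total counts in place of TMM (0.51) and without JJN3 THZ1 replicate 1.

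Between the DMSO groups, 4 of the 10 genes were higher and 2 were lower in the libraries labelled H929 than in JJN3, while 33.0% of 14590 genes were higher and 32.6% lower. SHMT2 was at 345 and 371 CPM under the H929 label against 160 and 164 CPM in JJN3 (log2 fold change 1.14, SE 0.0546, adjusted p = 1.6e-10 by edgeR), and SLC7A11 (1.42), TRIB3 (0.93) and PSPH (0.56) were also higher. The PSPH difference was 0.48 without H929 DMSO replicate 2, within the limit. CHAC1 was lower by 1.22 and DDIT3 by 0.69, a call that DDIT3 lost without H929 DMSO replicate 2 (adjusted p = 0.079 by edgeR) and with DESeq2 (0.0598), within a range of 0.00838 to 0.079. ATF4 (0.10), PSAT1 (-0.03), PHGDH (0.05) and ASNS (0.25) were not called.

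Between the THZ1 groups, 7 genes were higher under the H929 label and 3 were not called, beside 34.0% higher and 32.5% lower among 14981 genes. PSAT1 was at 163 and 156 CPM under the H929 label against 42.9 and 44.2 CPM in JJN3 (log2 fold change 1.90, SE 0.0794, adjusted p = 2.19e-09 by edgeR). PSPH (1.75), ASNS (1.47), CHAC1 (1.36), SHMT2 (1.30), ATF4 (0.73) and TRIB3 (0.72) were higher as well. DDIT3 (0.51, adjusted p = 0.0555 by edgeR), PHGDH (0.44) and SLC7A11 (-0.05) were not called. DDIT3 was called with total counts in place of TMM (0.60, adjusted p = 0.0298 by edgeR), and PHGDH was called with total counts (0.53), without JJN3 THZ1 replicate 1 (0.56) and without H929 THZ1 replicate 2 (0.51). These comparisons share libraries with those of THZ1 against DMSO and are not independent of them.

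Across the 4 groups the order of mean levels differed from gene to gene. ATF4 and TRIB3 had the same order, from the H929 DMSO label through JJN3 DMSO and the H929 THZ1 label to JJN3 THZ1, with no overlap between neighbours. PSAT1 was highest under the H929 THZ1 label and lowest in JJN3 THZ1, and the DMSO groups between them overlapped. PHGDH varied least, with a 1.33-fold span of group means and overlapping neighbours, and CHAC1 most, with a 4.35-fold span. SLC7A11 was lowest in JJN3 DMSO, and its other 3 groups lay between 10.8 and 12.6 CPM.

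Over the 8 libraries and 8914 genes, the patterns most like that of ATF4 were those of NKIRAS2, HNRNPL and C19orf70, with root mean square differences of 0.0655, 0.0723 and 0.0761 in mean-centred log2 CPM. The 7 targets above the level limit of this comparison ranked between 1017 (PHGDH) and 6386 (SLC7A11) of these genes, and ASNS ranked 1149 and TRIB3 2004. The measure weighs the size of changes as well as their direction. PHGDH, which varied least of the genes followed, ranked above TRIB3, which had the same group order as ATF4. The patterns share libraries, lines and treatment, and the measure is a description.

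Reads from pseudogenes of the 10 genes were few. The counted pseudogenes of ATF4 had at most 17 counts in a library, those of ASNS 20 and those of PSAT1 7. The PSPH pseudogene, PSPHP1, had 65 and 78 counts under the H929 DMSO label and 0 in every other library. PSPH itself had 926 and 989 counts under that label, and the part of PSPHP1 in its values was not tested.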

How the data were processed

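RNA-seq counts of 8 libraries (JJN3 and H929, DMSO or THZ1 at 50 nM for 24 h, 2 per group) were used as deposited. The authors aligned single-end reads to hg19 with STAR 2.5.2a, kept uniquely mapped reads and counted reads per Ensembl gene with featureCounts, without normalization. The authors' DESeq2 tables hold their own comparison of each line and were not used, except that the JJN3 table paired identifiers with gene symbols. Genes were tested with edgeR 4.0.16 in R 4.3.3 (TMM, filterByExpr, quasi-likelihood test, Benjamini-Hochberg adjustment over all genes tested), with DESeq2 1.42.0 as an alternative, together with other size factors, filters, fold limits, a replicate block and each library left out in turn. The fits were also run on simulated counts with known changes. Far fewer genes changed there than were called here, so that run does not cover changes as wide as these. Standard deviations and tests rest on 2 libraries per group, and intervals cover counting error and this spread. Samples were grouped by their titles. The gene lists, the 10 genes and the tests were chosen with earlier results of these data known. From each list the called gene with the largest rise and the largest fall at an average log2 CPM of at least 1 was named, except where it is not reported here, and the genes most like ATF4 were sought at an average log2 CPM of at least 3. Same-numbered libraries did not deviate together (r of -0.014 in JJN3 and -0.029 under the H929 label). Site sequences came from GRCh37 with GENCODE v44lift37, and promoters from RefSeq (GRCh38).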

Additional observations from a re-analysis of the deposited data

Results flagged for a closer look

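The THZ1 response differed between the libraries labelled H929 and JJN3, by the interaction in edgeR's quasi-likelihood test, for 7 of the 10 genes, while 28.1% of all genes tested were called higher and 25.5% lower. The difference on the log2 scale was 2.56 for CHAC1, 1.90 for PSAT1, 1.20 for ASNS, 1.17 for DDIT3, 1.16 for PSPH, 0.60 for ATF4 and -1.50 for SLC7A11. DDIT3 shares exon bases with MARS and MBD6 on the other strand, and their part in its difference was not tested. The DMSO and THZ1 libraries labelled H929 also differed in light chain, FGFR3 and MAF, and treatment and the source of the cells cannot be told apart in these differences.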

How the results depend on the processing

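With 2 libraries per group, low counts limit DDIT3 most (at most 96 counts), and counts scaled within a library cannot show a change in total RNA per cell. For the 10 genes, 555 of 580 recomputed values kept their direction and their side of the thresholds. With a log2 fold change beyond 1, JJN3 had 1397 genes higher and 1006 lower and 4 of the 10 genes lower. Under the H929 label 3146 of 14863 genes were then lower, TRIB3 (-1.27) among them, and 0 of the 10 genes were higher. Between the DMSO groups 2 of the 10 genes were higher and 1 lower at this limit. The shares over all genes that match these last counts are not given here, and the counts are not read as a result about the 10 genes. Under the H929 label 0 of the 10 genes were higher with DESeq2, with no filter on low counts and with the replicate number as a block. The replicate block took the adjusted p of DDIT3 there to 0.0572 (edgeR) and changed no other call among the 10 genes; its numbers share only a label. Between the DMSO groups 1 of the 10 genes was lower with DESeq2. When 1 library in turn was left out, the 10 genes had 6 to 7 lower in JJN3, 0 to 1 higher under the H929 label, 5 to 7 with a higher difference of response, and between the DMSO groups 3 to 4 higher and 1 to 2 lower. Directions that turned were near 0: SHMT2 under the H929 label ran from -0.01 to 0.13 and PHGDH between the DMSO groups from -0.03 to 0.10 when 1 library in turn was left out, and SLC7A11 between the THZ1 groups was 0.04 with total counts. Total counts moved the median of all genes to 0.181 for the difference of responses and to 0.119 between the THZ1 groups; the share of higher against lower calls in JJN3 then went from 2877 against 2972 genes to 2353 against 3639. The cause of these shifts was not tested.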
